A study of Drosophila melanogaster with 40 samples.

Results

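The genes described here are those for the proteins of the Drosophila cytoplasmic ribosome. They were taken as every gene whose FlyBase symbol begins with RpL or RpS, together with sta, the gene for the small-subunit protein RPSA. The genes for mitochondrial ribosomal proteins were left out. This rule by symbol also takes in RpLP0-like, RpL7-like and RpL24-like, homologs of yeast factors of large-subunit assembly, and they stay in all counts and medians. The dm6 annotation holds 93 such genes, and 88 of them were matched by identifier among the 17665 genes of the expression tables. The other 5 (RpL19, RpL27A, RpL31, RpS10b and RpS12) were not analysed here.

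The study followed DNA N6-methyladenine (6mA) and the forkhead protein Jumu through the maternal-to-zygotic transition of the fly embryo, with RNA-seq, 6mA-DNA-IP and a pull-down of genomic DNA with Jumu. The mutant groups were jumu mutant ovaries, jumu M-,Z+ embryos (from jumu mutant mothers, fertilised by wild-type sperm) at 0.75 h and 3 h, jumu M-,Z- embryos (lacking the maternal and the zygotic gene) at 3 h, and M- DMAD embryos (from DMAD mutant mothers) at 3 h. For 6mA there were also DMAD knockdown embryos at 6 h, which the study made by injecting double-stranded RNA into w1118 embryos. DMAD, listed as Tet in the annotation, is the enzyme held to remove 6mA. The jumu alleles (jumu1 and jumu2) were made with CRISPR/Cas9 and the DMAD alleles (DMAD1 and DMAD2) are described as null, but the labels do not say which allele combination each library carried. The wild type was w1118, with a collection of its own in each series: ovaries, 0.75 h and 3 h with the jumu embryos, 3 h with the DMAD embryos, and 0.75 h, 3 h and 6 h in the stage series. Ovary samples carry the tissue label embryo and the age label ovary. Each group was sequenced as 2 libraries, and the tables give 1 pooled FPKM (read fragments scaled to transcript length and to library size) per gene and group, in 12 columns of 7 tables. With 1 value per group there is no replicate check, no error and no test in what follows. A gene was counted as changed at an absolute change of at least 1 in log2(FPKM + 1), counting only genes that reached 1 FPKM in either group.

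A ribosome needs its proteins in nearly equal numbers, and in most eukaryotes their genes are among the most strongly and most evenly transcribed of all. In flies, loss of 1 copy of many of these genes gives the Minute phenotype of slow growth and short bristles. Their promoters commonly use a polypyrimidine initiator (the TCT motif), and the matching pyrimidine run at the 5′ end of the mRNA takes part in the control of its translation. The egg receives a maternal stock of these mRNAs from the ovary, and zygotic transcription adds to it later.

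The TCT initiator was looked for on the gene strand as TCTTTC, with either pyrimidine allowed at its first and at its last base, within 10 bases of the annotated start that most transcripts of a gene share. It was found at 48 of the 88 genes (54.5%) and at 2.05% of 13968 protein-coding genes. Counted at any annotated start, it was found at 61 of the 88 and at 3.03% of protein-coding genes. In the 48 genes the motif began at a median of 3 bases after the start. The Inr motifs TCAGTT and TCAGTC, searched in the same window, were present at 1 member against 9.79% of protein-coding genes, and TATAAA between 45 and 15 bases before the start at 1 member against 8.84%. The replication-related element TATCGATA, searched on both strands from 250 bases before to 50 after the start, was present at 25 members (28.4%) against 9.24%, and the E-box CACGTG at 11 members (12.5%) against 4.23%. A match describes the letters in the window and not a bound site.

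The start windows below are of the genes on which the later results turn, with 15 bases before the annotated start and 15 bases of transcript, read 5′ to 3′ from the dm6 genome. Capitals mark the TCT motif. The first set holds RpS6, the target of S6 kinase, RpL30, RpS26 and the stalk protein gene RpLP1, which have the motif at the main start.
RpS6 (chrX:7901317-7901346, minus strand): tacttcctcctatcggTCTTTTtcaaccct
RpL30 (chr2L:19009223-19009252, minus strand): atttccgcctgttcttccTCTTTCttttgc
RpS26 (chr2L:18443214-18443243, minus strand): gggtgcgtccacactatttTCTTTCttttc
RpLP1 (chr2L:419937-419966, plus strand): cacactgcatatcaactgcTCTTTCcggtt

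The second set holds 4 genes whose levels are given below one by one in the jumu mutants and between stages. RpLP0, the stalk base protein, has 2 annotated transcripts with a start each, and both starts are shown.
RpLP0 (chr3L:22075852-22075881, plus strand): accagaagcactgttagttaacagaagaga
RpLP0, second start (chr3L:22076077-22076106, plus strand): tgccgccgccaacttcacTCTTTCcgttct
sta (chrX:1483278-1483307, minus strand): ttcaacccggaaatcggccattttgtcaaa
RpS2 (chr2L:9897507-9897536, minus strand): tctaagcggatggctcggccatttcgtttt
RpS10a (chr3R:27652745-27652774, plus strand): gaagtttcggtaaatactaatttaagctgg

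The motif stood at the second RpLP0 start only, and none of the annotated starts of sta, RpS2 or RpS10a had it within 10 bases. The windows of sta and RpS2 share a run of 10 bases, tcggccattt. It was noticed after the expression values were seen, and 3 of the 13968 protein-coding genes hold it in this window, sta and RpS2 among them.

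The members fell into clear classes of level. A median FPKM over the columns of at least 1000 was found for 75 genes, of 50 to 1000 for 6 genes, of 1 to 50 for 3 genes and below 1 for 4 genes. The highest medians were those of RpL41 (13260 FPKM), which codes for a very short peptide, RpS29 (5876 FPKM), RpL32 (5449 FPKM), RpS26 (4783 FPKM) and RpL29 (4700 FPKM). RpL41 ranged between 7492 and 92572 FPKM. It held 1.87% of the members' summed FPKM in wild-type 3 h embryos of the DMAD series and 19.9% in those of the stage series. The lowest medians were those of RpL10Aa, RpS28-like and RpS28a, listed at 0 FPKM in at least 5 of the 6 columns that hold them, RpL22-like (0.444 FPKM) and RpS19b (2.16 FPKM). RpS28a had 6.46 FPKM in wild-type 6 h embryos, the one column in which it was not listed at 0, and RpL10Aa had 0.234 FPKM in jumu M-,Z- embryos and was otherwise at 0. All 7 members with a median below 50 are members of duplicated pairs or families.

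Between 63 and 74 of the 100 genes with the highest FPKM were members in every column. Together the members made up 30.3% of the summed FPKM in jumu mutant ovaries and 34.7% in wild-type ovaries. The share was 19.4% in jumu M-,Z+ embryos at 0.75 h, against 21.9% in their wild type. At 3 h the share of M-,Z- embryos was 30.1% and that of M-,Z+ embryos 31.9%, against 29.9% in their wild type. M- DMAD embryos had 32.3%, against 33.4% in theirs. In the stage series 0.75 h embryos had 29.0%, 3 h embryos 41.6% and 6 h embryos 38.0%. The 3 wild-type collections at 3 h thus spanned 29.9% to 41.6% and the pair at 0.75 h spanned 21.9% to 29.0%, wider than any difference between a mutant and its own wild type. Part of this spread lay in RpL41 alone. At 3 h it held 4.86% of the members' sum in the wild type of the jumu series and 19.9% in that of the stage series. At 0.75 h it held 8.47% and 16.6%.

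**Figure D1:**
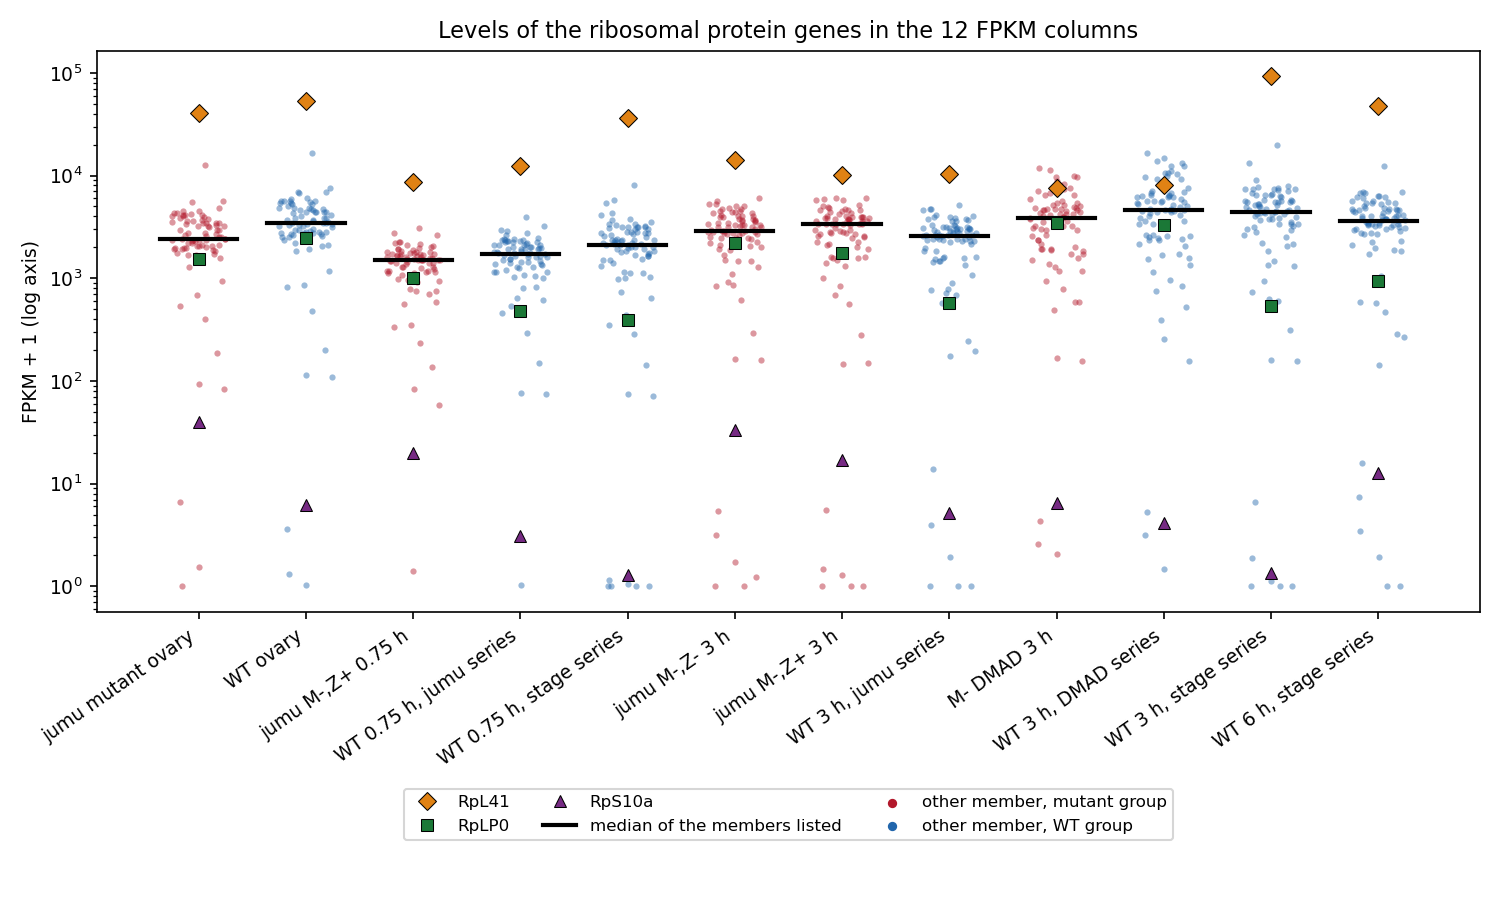
FPKM + 1 of each of the 88 genes (log axis) in the 12 columns, mutant groups in red and wild type in blue, with the median of the listed members as a black bar. The bulk of the members lies in a narrow band, RpL41 stands at the top of every column but those of the DMAD series, and RpS10a is higher in each jumu mutant than in its wild type, at 38.9 and 5.13 FPKM in mutant and wild-type ovaries.

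Columns that share a label did not share a profile, which bears on every result below. The 11 listed blastoderm genes (sna, twi, ftz, eve, run, kni, Kr, gt, slam, nullo and bnk) summed at 3 h to 1401 FPKM in M-,Z- and 2186 FPKM in M-,Z+ jumu embryos, against 2345 FPKM in their wild type. The sum was 199.9 FPKM in M- DMAD embryos labelled 3 h, against 2201 FPKM in their wild type. The 53 listed cuticle protein genes, made late in embryogenesis, summed to 8023 FPKM in M- DMAD embryos, against 46.0 FPKM in their wild type. In the jumu series the sum over 96 such genes was 28.1 FPKM in M-,Z- and 316.8 FPKM in M-,Z+ embryos at 3 h, against 1668 FPKM in wild type. Maternal mRNAs (bcd, smg, osk, gcl and Hsp83) summed at 3 h to 987.1 FPKM in M-,Z- and 883.9 FPKM in M-,Z+ jumu embryos, against 172.5 FPKM in wild type. The 13 genes of follicle cells and eggshell summed to 36270 FPKM in jumu mutant ovaries, against 74634 FPKM in wild-type ovaries, and the 5 germline genes to 1333 FPKM in mutant and 1369 FPKM in wild-type ovaries. The ovary columns thus match their age label and not their tissue label. The jumu transcript was at 55.5 to 102.7 FPKM in the 4 jumu mutant columns and at 68.0 to 98.7 FPKM in their wild types, and Tet (DMAD) was at 3.41 FPKM in M- DMAD embryos, against 1.49 FPKM in their wild type. The transcript level does not check these alleles. In bulk RNA, fewer cells of a type and less RNA per cell cannot be told apart.

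Jumu mutant ovaries had lower levels of nearly every ribosomal protein mRNA than wild-type ovaries, with little difference between the genes. The change was negative for 81 of the 83 expressed members, with a median of -0.42 and a middle range of -0.47 to -0.38 on the log2(FPKM + 1) scale. The median change of all 7918 expressed genes was 0.02, and that of the 1339 genes with at least 100 FPKM in either group was -0.04. None of the members fell past the fold, against 5.08% of all expressed genes, and 1 rose past it (RpS10a), against 1.57%. The members' median was 2422 FPKM in mutant and 3413 FPKM in wild-type ovaries. Their share of the summed FPKM was 30.3% in mutant and 34.7% in wild-type ovaries. That sum over all genes was itself 877282 FPKM in mutant and 1027250 FPKM in wild-type ovaries. How far the totals account for the shift was not tested. Wild-type ovaries had 1 column only, so no spread between wild-type collections is known for this comparison. The shift was nearly absent after quantile normalization, which makes the top ranks of each column equal (last section). RpL32 had 4493 FPKM in mutant and 6053 FPKM in wild-type ovaries and RpS29 had 5686 and 7628 FPKM, changes of -0.43 and -0.42. The lowest changes were those of RpS21 (-0.76), with 2355 FPKM in mutant and 4000 FPKM in wild type, RpLP2 (-0.72), with 4189 and 6898 FPKM, and RpLP0 (-0.67), with 1540 and 2455 FPKM. The other expressed member that was higher in the mutant was RpS19b, at 5.61 FPKM in mutant and 2.66 FPKM in wild type. RpL22-like, below the limit of 1 FPKM, was at 0.536 and 0.0275 FPKM. The sum of the follicle cell and eggshell genes was also lower in the mutant ovary (above), and its part in the shift was not tested.

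As sets, the genes of other parts of the translation machinery did not show a shift of that size in the ovary. The median change was -0.05 for 71 mitochondrial ribosomal protein genes, -0.12 for 39 translation initiation and elongation factors, -0.12 for 20 ribosome biogenesis genes and -0.03 for 7 RNA polymerase I subunit genes. None of these genes passed the fold in either direction in the ovary. Of the 20 ribosome biogenesis genes 18 were lower in the mutant and 2 higher, with Fib (-0.45) and Non1 (-0.38) lowest. In wild-type ovaries all biogenesis and polymerase I genes were below the members' median of 3413 FPKM, with Nop60B highest at 580.9 FPKM. The part of expression level in the contrast was not tested. RACK1 (Rack1), a protein bound to the small subunit and no member here, had 1598 FPKM in mutant and 2169 FPKM in wild-type ovaries, a change of -0.44, close to the members' median.

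Early jumu M-,Z+ embryos at 0.75 h showed a smaller shift in the same direction. Of 82 expressed members 72 were lower in the mutant, with a median change of -0.24 against 0.00 for all 7703 expressed genes and -0.06 for the 1317 with at least 100 FPKM in either group. None fell past the fold (3.75% of all genes did), and 2 rose past it, RpS10a and RpLP0 (1.36% of all genes). The members' median was 1499 FPKM in the mutant and 1736 FPKM in its wild type. The sum over all genes was 631644 FPKM in the mutant and 664403 FPKM in its wild type. Against both wild-type collections at 0.75 h, 71 of the 82 members were below the lower of them (33.9% of all expressed genes were) and 5 were above the higher (36.2% of all genes): RpS10a, RpLP0, RpLP0-like, sta and RpS2. The wild type of the jumu series was itself the lower of the 2 for most members, with a median change of -0.38 relative to the stage series. The count below both collections therefore adds little to the comparison with the mutant's own wild type. The shift of -0.24 was smaller than the SD between the medians of the 2 collections, 0.27 on the log2 scale. The lowest changes were those of RpS21 (-0.77), RpL39 (-0.72), RpL38 (-0.53) and RpL41 (-0.51). RpL39 had 1376 FPKM in the mutant and 2275 FPKM in its wild type.

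At 3 h the members' change had the opposite sign. In jumu M-,Z+ embryos 71 of 84 expressed members were higher than in wild type, with a median change of 0.27, and among M-,Z- embryos this held for 73 of 84, with a median of 0.20. All expressed genes had medians of 0.04 and -0.03. Genes with at least 100 FPKM in either group, members included, had medians of 0.22 in M-,Z+ and 0.40 in M-,Z- embryos. Summed over all genes, FPKM came to 854561 in M-,Z- and 825685 in M-,Z+ embryos, against 708360 in wild type. The members' share of these totals was 30.1% and 31.9%, against 29.9%. How far the totals account for the members' change was not tested. Both mutants are set against the same wild-type column, so the 2 comparisons are not independent. In M-,Z+ embryos 3 members rose past the fold (RpS10a, RpLP0 and RpL22, against 11.5% of all genes) and 2 fell past it (RpS19b and RpL37-2, both below 15 FPKM, against 11.5%). In M-,Z- embryos 3 rose past it (RpS10a, RpLP0 and sta, against 18.6%) and RpL37-2 fell past it (against 20.7%). The share of members past the fold was thus below that of all genes in each direction. All genes include many of low level. Of the 1402 genes with at least 100 FPKM in either group, 172 rose and 40 fell past the fold in M-,Z+ embryos. In M-,Z- embryos 358 of 1619 such genes rose and 69 fell. The 2 mutants differed little from each other: the median change of M-,Z- relative to M-,Z+ was -0.03, with RpS19b the 1 member past the fold upward (5.12% of all genes) and none downward (13.2%).

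The shift at 3 h lay within the spread of the wild-type collections. The members' median was 2898 FPKM in M-,Z- and 3335 FPKM in M-,Z+ embryos, against 2580 FPKM in the wild type of the jumu series, 4372 FPKM in that of the stage series and 4606 FPKM in that of the DMAD series. On the log2 scale the SD between the medians of the 3 wild-type collections was 0.48, computed over the 75 genes with a median of at least 1000 FPKM, which exceeds the shift itself. Only RpS10a was above all 3 wild-type collections in both mutants, against 17.6% of all expressed genes, and RpL37A, RpS9 and RpS26 were below all 3 in both, against 8.06%. With another wild-type column as the control the median change was negative in both mutants, between -0.69 and -0.37. At 0.75 h the SD between the medians of the 2 wild-type collections was 0.27.

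**Figure D2:**
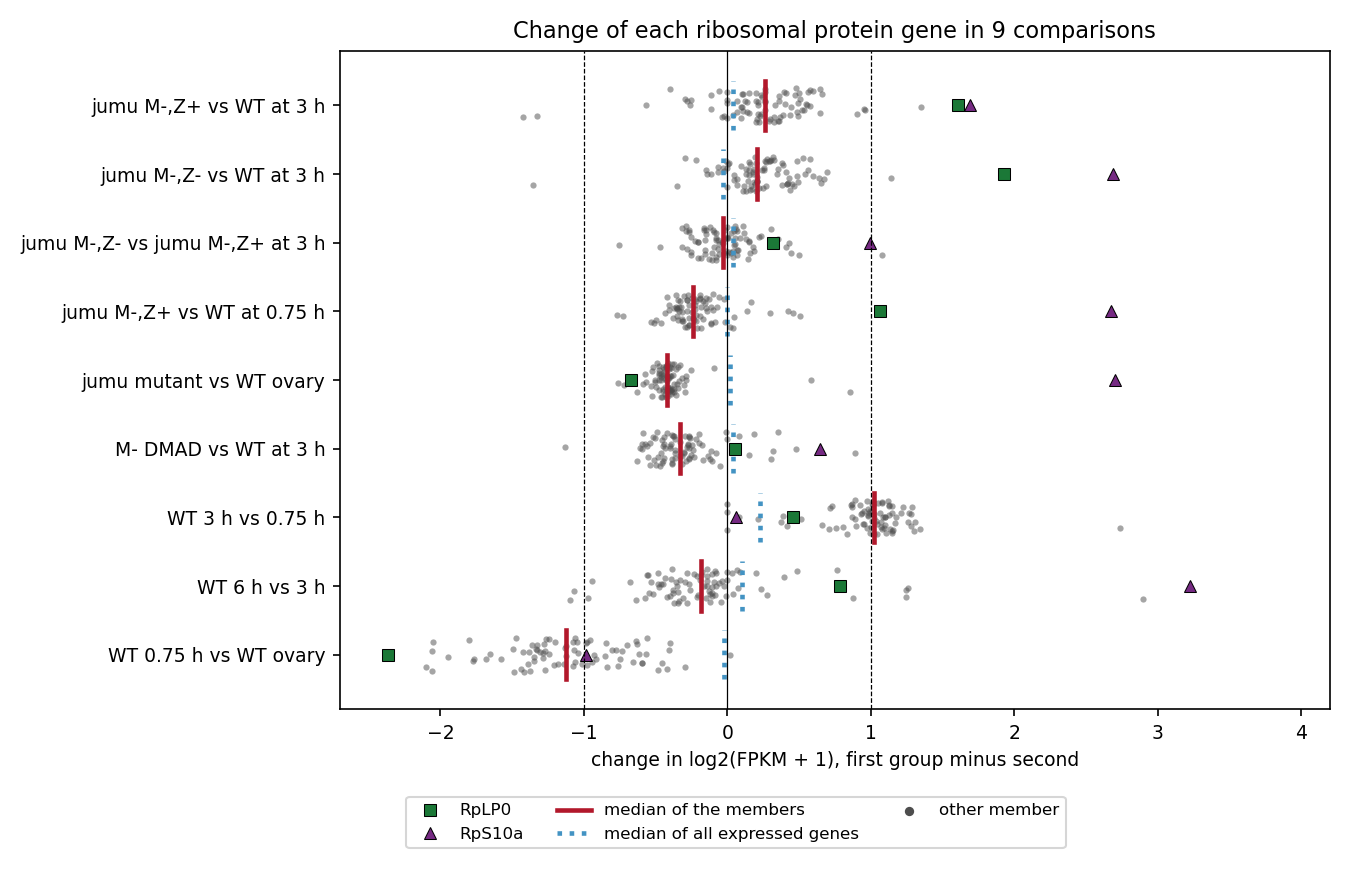
Change in log2(FPKM + 1) of every member in the 9 comparisons, first-named group minus second, with the members' median (red) and the median of all expressed genes (blue, dotted); dashed lines mark a change of 1. The members form a narrow cloud shifted to -0.42 in jumu mutant ovaries and to 1.02 between 0.75 h and 3 h, and RpS10a and RpLP0 lie apart from it.

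RpS10a was the member with the largest change between each jumu mutant and its wild type. It is the paralog of RpS10b and codes for a version of the small-subunit protein RpS10. It had 38.9 FPKM in jumu mutant ovaries, against 5.13 FPKM in wild-type ovaries, which is 7.58-fold higher. At 0.75 h it had 18.8 FPKM in jumu M-,Z+ embryos, against 2.09 FPKM in their wild type and 0.300 FPKM in the wild type of the stage series. At 3 h it had 32.6 FPKM in M-,Z- and 15.8 FPKM in M-,Z+ embryos, against 4.21 FPKM in their wild type, 0.358 FPKM in the stage series and 3.17 FPKM in the DMAD series. All 4 jumu mutant values were above all 6 wild-type values of the same tissue or stage. M- DMAD embryos had 5.54 FPKM, a change of 0.65 relative to their wild type. In the wild-type stage series RpS10a had 0.300 FPKM at 0.75 h, 0.358 FPKM at 3 h and 11.7 FPKM at 6 h, so that the change between the last 2 stages (3.22) was the largest of any member.

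Even in mutant ovaries, where it was highest, RpS10a was at 38.9 FPKM, against a median of 2422 FPKM over the members of that column. The gene lies on chromosome arm 3R (27652760 to 27653363, plus strand) inside an intron of tau, which is transcribed from the other strand, and 0 exons of tau overlap it. The sources used here do not say that reads were counted by strand. tau had 0.0496 FPKM in jumu mutant and 0.462 FPKM in wild-type ovaries, 0.214 FPKM in M-,Z+ and 0.912 FPKM in wild-type embryos at 0.75 h, and 0.471 FPKM in M-,Z- and 1.70 FPKM in M-,Z+ embryos at 3 h against 3.03 FPKM in wild type. tau was thus lower than in wild type in each of the 4 jumu mutant columns, in all of which RpS10a was higher. The neighbour Mtl had 91.9 FPKM in mutant and 76.0 FPKM in wild-type ovaries, and 123.6 FPKM in M-,Z+ and 123.1 FPKM in wild-type embryos at 0.75 h. At 3 h Mtl had 160.4 FPKM in M-,Z- and 128.5 FPKM in M-,Z+ embryos, against 71.8 FPKM in wild type, so it was higher in both mutants there, as RpS10a was. The other nearby genes listed at 3 h were lower in both mutants. Mlc1 had 0.550 and 34.4 FPKM against 118.5 FPKM, and CG5611 had 1.65 and 1.43 FPKM against 3.38 FPKM. Tusp had 0.149 and 0.722 FPKM against 0.825 FPKM, and unc80 had 0.0210 and 0.268 FPKM against 0.350 FPKM.

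RpLP0, the base of the ribosomal stalk that recruits translation factors, rose past the fold in the jumu mutant embryos at both stages but not in the ovary. It had 995.4 FPKM in M-,Z+ embryos at 0.75 h, against 475.2 FPKM in their wild type and 394.2 FPKM in the stage series. At 3 h it had 2205 FPKM in M-,Z- and 1768 FPKM in M-,Z+ embryos, against 578.1 FPKM in their wild type, 3.81- and 3.06-fold. The stage series had 540.9 FPKM at 3 h, but the wild type of the DMAD series had 3290 FPKM, above both mutants, so the groups overlap once this collection is included. In ovaries the direction was the opposite, as given above. The other stalk proteins did not share this change: RpLP1 had 3600 FPKM in M-,Z- and 3984 FPKM in M-,Z+ embryos against 2994 FPKM, and RpLP2 had 2708 and 3741 FPKM against 2581 FPKM. RpLP0-like, a homolog of a yeast factor of large-subunit assembly, had 162.3 and 146.0 FPKM against 175.5 FPKM.

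sta and RpS2, both small-subunit proteins, showed weaker versions of this pattern. sta had 3484 FPKM in M-,Z- and 3081 FPKM in M-,Z+ embryos at 3 h, against 1583 FPKM in their wild type, and 1452 FPKM at 0.75 h, against 1024 FPKM. RpS2 had 4381 and 4249 FPKM at 3 h, against 3130 FPKM, and 1753 FPKM at 0.75 h, against 1277 FPKM. In ovaries both were lower in the mutant, sta at 2185 against 3281 FPKM and RpS2 at 2297 against 3259 FPKM. The wild type of the DMAD series had 13974 FPKM of sta and 5533 FPKM of RpS2, higher than in any jumu mutant.

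**Figure D3:**
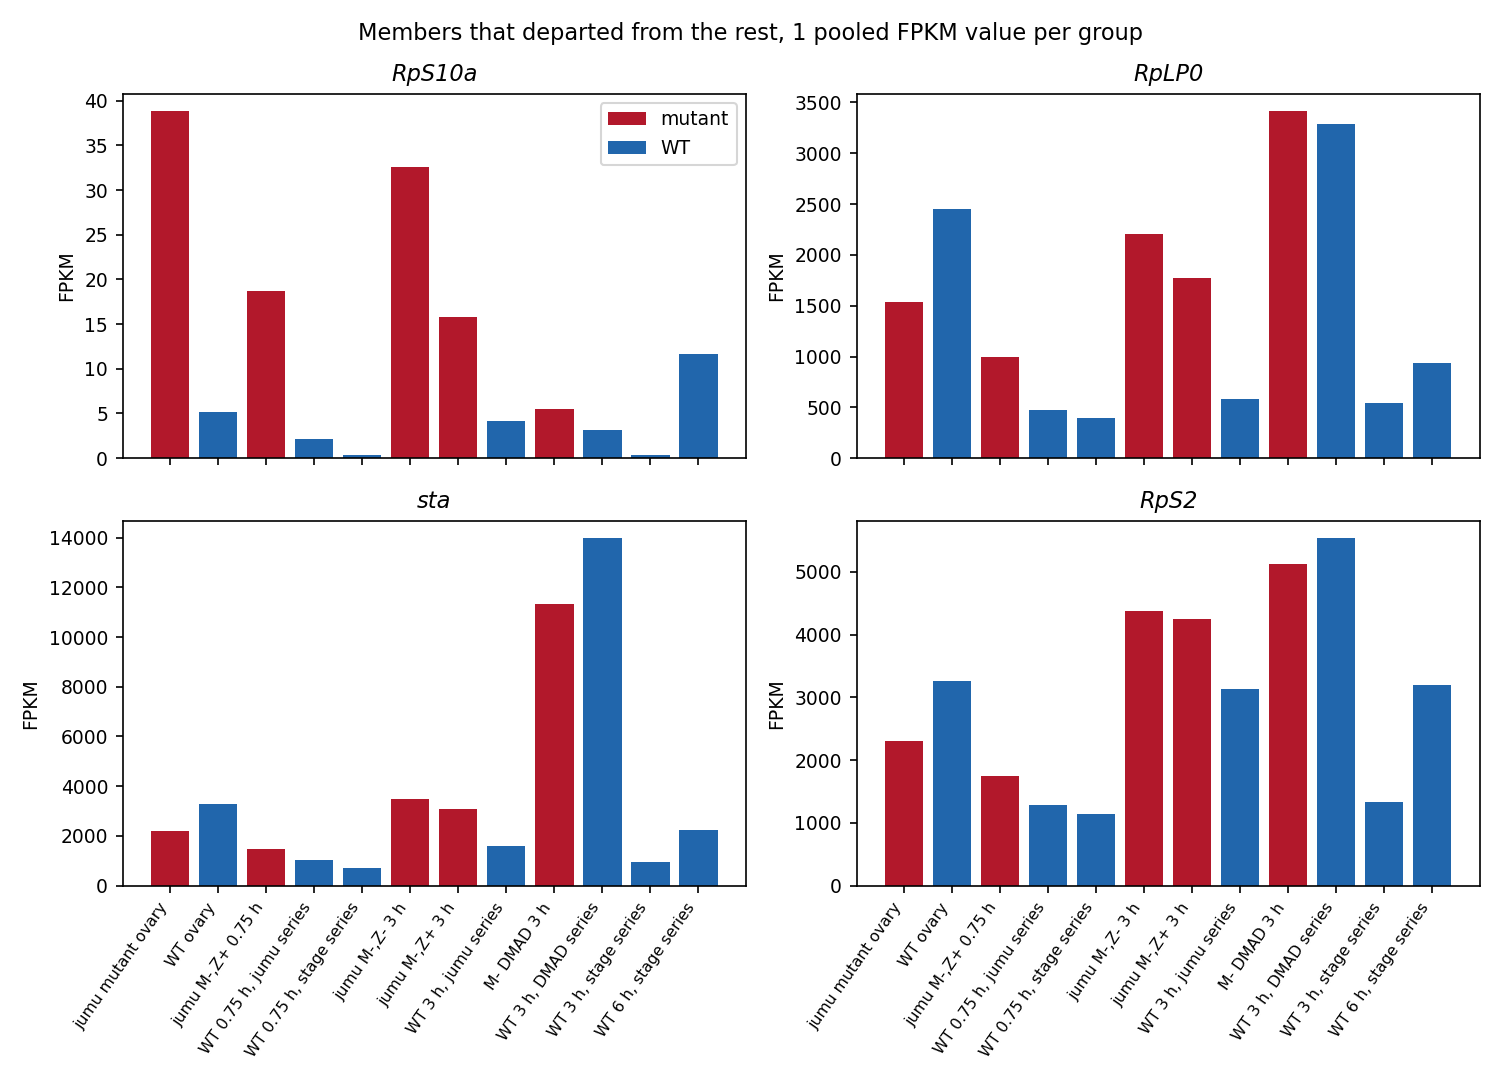
FPKM of RpS10a, RpLP0, sta and RpS2 in the 12 columns, 1 pooled value per bar, mutants in red and wild type in blue. RpS10a is high in the 4 jumu mutant groups and in wild-type 6 h embryos, and RpLP0, sta and RpS2 are low in the wild-type columns at 0.75 h and at 3 h of the stage series and highest in the DMAD series.

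RpL22, a large-subunit protein, passed the fold at 3 h in M-,Z+ embryos and not in M-,Z- embryos, with a change of -0.75 between the 2 mutants. It had 1090 FPKM in M-,Z- and 1839 FPKM in M-,Z+ embryos, against 720.1 FPKM in their wild type, but 1855 FPKM in the wild type of the stage series. RpS13 (4852 and 6037 FPKM against 3118 FPKM) and RpS20 (4135 and 4936 FPKM against 2634 FPKM) had changes of 0.95 and 0.91 in M-,Z+ embryos, next after sta (0.96). RpS6 had 3435 and 3836 FPKM against 3275 FPKM and so lay below the members' median change.

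M- DMAD embryos had lower ribosomal protein mRNA than their wild type, in 75 of 85 expressed members, with a median change of -0.33 against 0.04 for all 8961 expressed genes. The 1807 genes with at least 100 FPKM in either group had a median change of -0.43, lower than that of the members. Summed over all genes, FPKM came to 1050090 in the mutant and 1295290 in wild type. The members' share of these totals was 32.3% in the mutant and 33.4% in wild type. How far the totals account for the members' change was not tested. Of the members 0 rose past the fold, against 23% of all genes, and 1 fell past it, against 5.07%. RpLP2 had the highest change, at 1382 FPKM in the mutant and 743.9 FPKM in wild type (0.89). RpS6 had 11718 FPKM in the mutant and 16702 FPKM in wild type. Relative to all 3 wild-type collections at 3 h, 4 of 85 members were above (RpL22-like, RpLP0, RpLP1 and RpS10a, against 29.7% of all genes) and 15 were below, among them RpL41, RpS3 and RpS23 (against 24.3%). The blastoderm and cuticle gene sums of this mutant differ from those of its wild type (above), and their part in the change was not tested. With the wild type of the jumu series as the control the median change was 0.54.

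Between wild-type stages the members moved together only at the first step of the stage series, 0.75 h to 3 h. The stage columns come from separate tables with no stated common scaling, so these changes are set across tables. From 0.75 h to 3 h all 82 expressed members were higher at the later stage, with a median change of 1.02 against 0.23 for all 8832 expressed genes and 0.72 for the 1777 genes with at least 100 FPKM in either group. Of these, 49 rose past the fold, against 24.6% of all genes, and 0 fell past it, against 28.6%. RpS6 had 1487 FPKM at 0.75 h, 3171 FPKM at 3 h and 2732 FPKM at 6 h. RpL32 had 3123, 6681 and 6335 FPKM at these stages. The members' changes at the first step lay in a narrow range, with quartiles of 0.93 and 1.13. Relative to the median of all genes, 9 members were past the fold. With both columns taken from the jumu series, 15 members rose past the fold and RpL39 fell past it, and RpL41 changed by -0.26.

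The members did not all follow this course. At the first step RpL37-2 changed most (2.73), and RpL36A changed by 0.42. RpS2 had 1148 FPKM at 0.75 h, 1334 FPKM at 3 h and 3192 FPKM at 6 h. sta had 727.2, 942.9 and 2232 FPKM, and RpLP0 had 394.2, 540.9 and 933.5 FPKM at the same stages. These 3 genes changed by 0.22, 0.37 and 0.46 between 0.75 h and 3 h, well below the members' median, and by 1.26, 1.24 and 0.79 between 3 h and 6 h, when most members were lower at 6 h. The median change from 3 h to 6 h was -0.18 against 0.10 for all 9576 expressed genes, with 67 of 85 members below 0. Genes with at least 100 FPKM in either group had a median of -0.42, lower than that of the members. At this step 5 members rose past the fold (RpS10a, RpS28a, RpS2, RpL37-2 and sta, against 24.4% of all genes) and 2 fell past it (RpS23 and RpL39, against 16.3%). RpS23 had 5382 FPKM at 0.75 h, 13254 FPKM at 3 h and 6197 FPKM at 6 h, and RpL39 had 2312, 5733 and 2734 FPKM.

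Between wild-type ovaries and 0.75 h embryos the direction was the reverse. Wild-type embryos at 0.75 h had less of all 82 expressed members than wild-type ovaries, again across 2 tables, with a median change of -1.13 against -0.02 for all 7796 expressed genes and -0.14 for the 1418 with at least 100 FPKM in either group. Of the members 51 fell past the fold, against 10.8% of all genes, and 0 rose past it, against 5.58%. The lowest were RpLP0 (475.2 FPKM in embryos, 2455 FPKM in ovaries, -2.37), RpL41 (12333 and 53027 FPKM, -2.10), RpL29 (3956 and 16468 FPKM, -2.06) and RpL30 (-2.06). RpS3A (-0.29), RpL10 (-0.40) and RpL9 (-0.42) changed least among the main class. Relative to the column of the stage series at 0.75 h, 20 members fell past the fold, with a median of -0.76. After quantile normalization 6 members fell past it and the shift was smaller (last section). The 13 follicle cell and eggshell genes summed to 74634 FPKM in wild-type ovaries and to 0.966 FPKM at 0.75 h of the stage series. Ovary and embryo thus differ in cell content, and its part in the change was not tested.

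Other genes of the translation machinery are given by their counts, beside shares over all genes of 24.6% that rose and 28.6% that fell past the fold at the first step, and of 24.4% and 16.3% at the second. At the step from 0.75 h to 3 h, 0 of 71 mitochondrial ribosomal protein genes rose past the fold and 20 fell, a share of falls close to that of all genes, and at the step to 6 h 11 rose and 4 fell. Of the translation factors (41 expressed at the first step, 42 at the second), 13 rose and 11 fell past it at the first step and 8 rose and 2 fell at the second. Of the 20 ribosome biogenesis genes, 7 rose and 2 fell past it at the first step and 3 rose and 1 fell at the second. Fib, the rRNA methyltransferase fibrillarin, had 118.5, 276.3 and 403.3 FPKM at 0.75 h, 3 h and 6 h. Of 7 RNA polymerase I subunit genes, 1 rose and 4 fell past it at the first step and 4 rose at the second. Among regulators, Trf2, the TBP relative that serves TCT promoters, had 184.9 FPKM in M-,Z- and 184.2 FPKM in M-,Z+ embryos at 3 h, against 100.1 FPKM in wild type, and 116.5 FPKM at 0.75 h, against 73.2 FPKM. M1BP, which binds many ribosomal protein promoters, had 89.2 and 87.3 FPKM at 3 h, against 134.2 FPKM, and 36.6 FPKM at 0.75 h, against 50.3 FPKM. None of the 10 listed regulators passed the fold in these comparisons. At 3 h their median change was 0.09 in M-,Z- and 0.21 in M-,Z+ embryos, with 6 above 0 and 4 below in each. At 0.75 h it was -0.01, with 4 above 0 and 6 below. In M-,Z- and M-,Z+ embryos at 3 h larp changed by 0.93 and 0.83, and Thor by -0.60 and -0.70.

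Members with and without the TCT motif at the main start had close median changes in most comparisons, with no test. Within the main class, 45 genes with the motif and 30 without had median changes of -0.43 and -0.42 in jumu mutant ovaries, of 0.26 and 0.33 in M-,Z+ embryos at 3 h, and of 1.01 and 1.02 from 0.75 h to 3 h. The widest gap of the 9 comparisons was between 0.75 h embryos and ovaries, at -1.27 with the motif and -1.04 without.

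The ratio between members was not constant across columns. Over the 75 genes of the main class, the SD of log2 FPKM was 0.95 in M- DMAD and 1.07 in its wild type, against 0.57 to 0.73 in the columns of the jumu embryos and ovaries and 0.74 to 0.95 in the stage series. The gene at the tenth percentile was 4.99-fold below that at the ninetieth in M- DMAD and 5.79-fold in its wild type, against 2.24- to 3.42-fold in all other columns. In both DMAD columns sta (11341 FPKM in M- DMAD, 13974 FPKM in wild type), RpS6 and RpL40 (9805 and 13342 FPKM), a ubiquitin fusion, were high, and RpL34b (591.6 and 520.7 FPKM), RpL22 (485.8 and 388.8 FPKM) and RpS27 (929.9 and 1156 FPKM) were low. In the 3 h columns of the jumu series RpL39 was low, at 910.8 FPKM in M-,Z- and 684.9 FPKM in M-,Z+ embryos and 571.0 FPKM in wild type, while it had 5733 FPKM at 3 h in the stage series. Across the 75 genes, Spearman's rho between this departure from the members' median and the length of the longest transcript lay between -0.51 and -0.34 in the ovary, 0.75 h and stage columns, and between -0.21 and -0.07 in the 3 h columns of the jumu and DMAD series. The genes of 1 column are not independent and no p is given. The labels give 1 kit for mRNA selection and 1 sequencer for the stage series, and a second kit and a second sequencer beside the first for all other RNA libraries, so kit and series cannot be told apart.

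**Figure D4:**
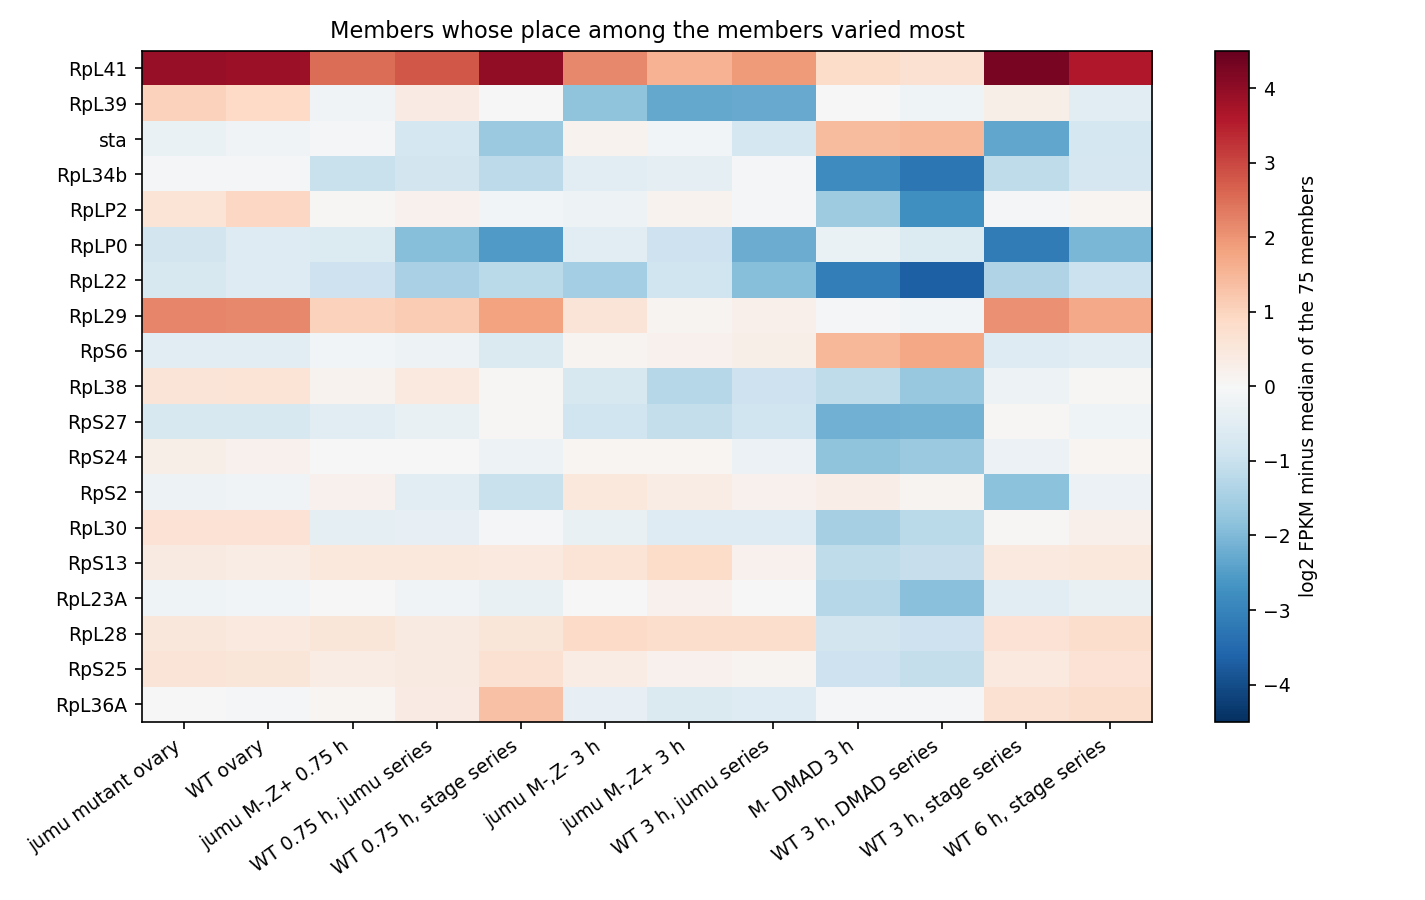
Log2 FPKM of a gene minus the median of the 75 main-class members in the same column, for genes in which it varied most (rows) over the 12 columns. The 2 columns of the DMAD series resemble each other and differ from the rest, with sta and RpS6 high and RpL34b, RpLP2 and RpL22 low, and RpL41 is highest in ovaries and the stage series.

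Duplicated members mostly had 1 strongly expressed copy. RpS28b, RpS19a, RpL37-1 and RpL10Ab had medians above 1000 FPKM, while their paralogs RpS28a, RpS19b, RpL37-2 and RpL10Aa stayed below 15 FPKM in every column. RpL22-like stayed at or below 1.07 FPKM. Of RpL34 both copies were abundant: RpL34a had 680.3 FPKM in jumu mutant and 861.7 FPKM in wild-type ovaries, and RpL34b had 2535 FPKM in mutant and 3526 FPKM in wild-type ovaries. RpS14a and RpS14b are identical at 97.8% of aligned coding bases and RpS15Aa and RpS15Ab at 98.2%, so the split of reads between those copies is uncertain. RpS14b, for example, had a median of 753.6 FPKM and RpS15Ab of 150.7 FPKM. The other pairs are identical at 60.1% to 81.1% of aligned coding bases. RpL7-like and RpL24-like, homologs of yeast factors of large-subunit assembly, lay between 136.3 and 847.5 FPKM and between 231.5 and 957.5 FPKM.

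Few ribosomal protein genes had a 6mA peak, and the count with a Jumu pull-down peak was small, with a share over all genes that was low as well. A gene was counted when the centre of a deposited peak lay within it or within 1 kb of either end, with 1 library per condition. The 6mA list of wild-type embryos at 0.75 h marked 3 of the 88 members, against 22% of 17370 genes. At 3 h it marked 2 members, against 6.97%, and at 6 h the list of DMAD knockdown embryos marked 2 members, against 14%, and that of wild-type embryos 0 members, against 4.45%. Jumu pull-down peaks marked 2 members at 0.75 h, against 4.35%, and 0 at 6 h, against 1.76%. The members had a median span of 1315 bp, against 1695 bp for all genes, and the part of length in these counts was not tested. With the centre within the gene itself, only RpL7A (6mA, 3 h), RpL22-like and RpL5 (Jumu, 0.75 h) were counted.

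The few peaks can be named. At 0.75 h the 6mA peaks stood near RpL37-1 (chrX:15140253-15140452), RpL5 (chr2L:22531699-22531876) and RpS28-like (chr2L:9437474-9437715), all outside the gene, and the first 2 genes had an overlapping peak in DMAD knockdown embryos at 6 h. At 3 h they stood inside RpL7A (chrX:6532682-6532835) and near RpS21 (chr2L:2855420-2855570). The Jumu peaks lay inside RpL22-like and RpL5. Their deposited scores, 10 times the −log10 of the q value, lay between 47 and 179. RpS10a, RpLP0, sta and RpS2 had no peak in any of the 6 lists, which held for every member not named with a peak here.

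**Figure D5:**
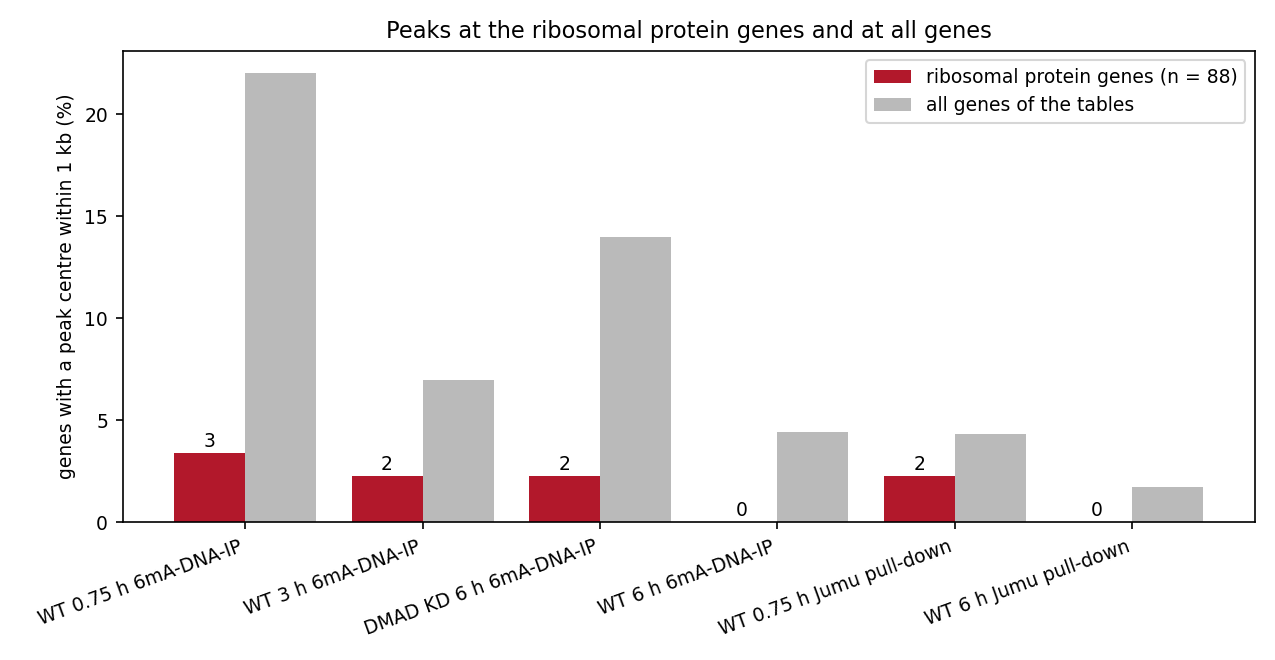
Percent of the 88 ribosomal protein genes (red, with the number of genes above the bar) and of all 17370 placed genes (grey) with a peak centre within 1 kb, for the 4 lists of 6mA peaks and the 2 of Jumu pull-down peaks. The red bars are lower than the grey ones in all 6 lists, with 3 members against 22% of genes in the list of 0.75 h.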

How the data were processed

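For RNA-seq, the authors removed rRNA reads, mapped the rest with STAR to dm6 and deposited FPKM values from cuffdiff, 1 per gene and group, pooled from 2 libraries. The submitters' processing notes also name TopHat2, with no role. FPKM is per length, and depth per library is unknown here. For the peaks, the authors mapped with Bowtie2 and called with MACS2 (for 6mA against IgG), and gave each peak a deposited score (−log10 q times 10). Members were found by symbol from the identifiers (264 of 17665 had none). Changes are differences of log2(FPKM + 1). Gene positions and starts came from Ensembl release 115 and sequences from the RefSeq dm6 assembly. Computation used Python 3.11.15, pandas 2.3.3, numpy 2.4.6, scipy 1.17.1 and Biopython 1.88, and the fold count was tested on simulated data. Named genes were those of highest and lowest median, the duplicated pairs, the stalk proteins, RpS6, sta, the ubiquitin fusions, the 3 largest rises and falls per comparison and the 10 largest departures. RpS13, RpS20, RpS27, RpS3, RpL9, the locus of RpS10a and the run shared by RpS2 and sta were singled out after values were seen. The members and lists were chosen with earlier results of these data known. Alternatives for pseudocount, filter, threshold, scaling, control, peak and motif rules were tried. The result for 1 duplicated pair is not reported here. RNA-seq of DMAD knockdown and zelda overexpression was not analysed here.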

Additional observations from a re-analysis of the deposited data

Results flagged for a closer look

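Some members changed in opposite directions in the jumu mutants of different stages, and the difference was not tested, since each group has 1 value. For jumu M-,Z+ embryos relative to wild type, the members' median change was higher at 3 h than at 0.75 h by 0.50 on the log2(FPKM + 1) scale (0.27 and -0.24). RpLP0 was higher in mutant embryos and lower in mutant ovaries than in wild type: its change at 3 h exceeded that in the ovary by 2.28, and its change at 0.75 h exceeded it by 1.74. sta did likewise, by 1.55 at 3 h and 1.09 at 0.75 h. At 3 h RpL22 exceeded its ovary change by 1.92 and RpLP2 by 1.25. The members' median change was itself 0.27 at 3 h and -0.42 in the ovary, so part of these differences was common to the members. RpS19b and RpL22-like, both near the limit of detection, went the other way, with differences of -2.28 and -1.15.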

How the results depend on the processing

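No paired analysis was possible because each table holds 1 pooled value per group, and for the same reason no library could be left out. Of 72 alternative values of a median change, 62 moved by less than the spread between wild-type collections and 10 moved further. With the wild type of the DMAD series as control the median was -0.69 in jumu M-,Z+ and -0.64 in M-,Z- embryos at 3 h, with that of the stage series -0.37 and -0.44, and at 0.75 h -0.58. The M- DMAD median was 0.54 with the wild type of the jumu series. Wild-type embryos at 0.75 h of the stage series gave -0.76 relative to ovaries. Quantile normalization gave -0.026 for the mutant ovary, 0.028 for 3 h relative to 0.75 h and -0.27 for 0.75 h relative to the ovary. Members hold most of the top ranks of each column, which this normalization makes equal. With other controls RpLP0 changed by -0.90 in M-,Z+ and -0.58 in M-,Z- embryos and sta by -2.0 in M-,Z- embryos (wild type of the DMAD series), RpL22 by -0.013 in M-,Z+ embryos (stage series), and RpL41 by -0.26 from 0.75 h to 3 h (jumu series). The cause was not tested. Shares moved to 40.1% in wild-type ovaries without the 20 highest other genes, and by quantile normalization to 29.4% in M-,Z+ and 31.7% in wild-type embryos at 0.75 h and 33.2% at 3 h of the stage series. Peak centres within the gene gave 0 members at 0.75 h, 1 at 3 h and 0 in DMAD knockdown, and q values below 1e-05 gave 1 Jumu peak gene at 0.75 h. The window of 5 bases gave 3 members with the TCT motif, that of 50 bases 67, and any annotated start, an alternative chosen after seeing the data, 61. Counts past the fold moved by over 1.5 times in 33 of 72 cases. At a threshold of 0.58 they were 12 in M-,Z+ (5 at a threshold of 1) and 9 in M-,Z- embryos at 3 h (4), 3 between the mutants (1), 4 at 0.75 h (2), 7 in ovaries (1), 8 in M- DMAD (1), 76 from 0.75 h to 3 h (49) and 14 from 3 h to 6 h (7). Quantile normalization left 2 from 0.75 h to 3 h and 6 from ovary to 0.75 h (51), and setting the median change to 0 left 9 from 0.75 h to 3 h.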
